A study of Homo sapiens with 6 samples.

Results

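The S100 genes encode small calcium-binding proteins. The 10 described here are S100A2, S100A3, S100A4, S100A6, S100A7, S100A8, S100A9, S100A10, S100A11 and S100A16, taken by gene name from a deposited table of 50868 genes. They were measured by RNA sequencing in KYSE-150, an established human line of oesophageal squamous cell carcinoma, grown at 37 °C in RPMI 1640 medium with 10% fetal bovine serum and 5% carbon dioxide. One group of 3 libraries, called siZNF514, comes from cells that the labels give as knockout ZNF514 (siZNF514). The other group of 3 libraries is titled nc and is the wild type of the series text. The labels do not say whether nc cells received a control siRNA or whether the 3 libraries of a group are separate cultures, so p-values measure the spread between these libraries, which may be technical.

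S100 proteins usually form dimers, and each chain folds around a pair of EF-hand loops. In most of them calcium binding exposes a surface that then grips a partner protein. S100A10 is the exception, since it no longer binds calcium and stays in the gripping shape. In stratified squamous epithelia, the tissue of origin of KYSE-150, S100 genes are known for strong and layer-specific expression, and most of them lie side by side in the epidermal differentiation complex on chromosome 1.

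All 10 genes lie on chromosome 1 of GRCh38, with the same spans as in GENCODE release 29. S100A10 (151982915 to 151994390) and S100A11 (152032506 to 152047907) form a separate pair, and 1310 kb lie between S100A11 and the next, S100A9 (153357854 to 153361027). Then follow S100A8 (153390032 to 153391188), S100A7 (153457744 to 153460701), S100A6 (153534599 to 153536244), S100A4 (153543613 to 153550136), S100A3 (153547329 to 153549372), S100A2 (153561108 to 153567890) and S100A16 (153606886 to 153613145). S100A9 is on the plus strand and the others are on the minus strand.

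The promoters of 4 members are shown because these 4 differed between the groups under every processing setting tried, 3 of them higher in siZNF514 (S100A11, S100A16 and S100A9) and 1 lower (S100A2). Each line is the 250 bases before the RefSeq transcription start nearest to the gene's 5′ end, on the gene's own strand, from RefSeq on GRCh38.p14 (chr1:152037005-152037254, minus, for S100A11; chr1:153613138-153613387, minus, for S100A16; chr1:153357604-153357853, plus, for S100A9; chr1:153565845-153566094, minus, for S100A2). The windows of S100A11 and S100A2 lie within the deposited gene spans, whose 5′ ends are at 152047907 and 153567890. Capitals mark exact matches, on either strand, to 4 motifs. The AP-1 site was searched as TGANTCA. The TATA box was searched as TATAAA. The GC box was searched as GGGCGG. The CCAAT box was searched under the letters of its name.
S100A11: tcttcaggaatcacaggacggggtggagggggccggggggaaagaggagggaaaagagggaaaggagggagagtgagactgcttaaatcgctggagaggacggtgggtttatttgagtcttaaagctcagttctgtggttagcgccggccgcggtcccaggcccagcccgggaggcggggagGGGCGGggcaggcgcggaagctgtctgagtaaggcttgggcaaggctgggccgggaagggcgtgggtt
S100A16: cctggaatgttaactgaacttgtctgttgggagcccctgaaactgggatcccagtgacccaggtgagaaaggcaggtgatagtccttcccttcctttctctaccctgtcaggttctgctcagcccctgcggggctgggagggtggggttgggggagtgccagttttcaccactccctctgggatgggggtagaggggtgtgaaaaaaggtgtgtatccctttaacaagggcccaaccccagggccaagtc
S100A9: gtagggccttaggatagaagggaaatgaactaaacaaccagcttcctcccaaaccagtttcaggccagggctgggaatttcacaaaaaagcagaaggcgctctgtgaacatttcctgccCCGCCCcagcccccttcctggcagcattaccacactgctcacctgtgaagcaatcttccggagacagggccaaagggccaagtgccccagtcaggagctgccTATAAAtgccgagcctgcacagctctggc
S100A2: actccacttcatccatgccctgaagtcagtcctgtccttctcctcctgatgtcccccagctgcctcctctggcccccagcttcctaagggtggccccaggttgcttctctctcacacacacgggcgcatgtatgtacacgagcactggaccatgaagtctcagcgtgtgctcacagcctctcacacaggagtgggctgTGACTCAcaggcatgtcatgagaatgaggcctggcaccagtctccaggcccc
S100A11 held 1 GC box, S100A9 held 1 GC box and 1 TATA box, S100A2 held 1 AP-1 site, and S100A16 held none of the 4 motifs. Of 35116 RefSeq windows of the same length, 6.57% held the AP-1 site, 10.7% the TATA box, 42.6% the GC box and 32.0% the CCAAT box. No motif was common to the 3 genes that were higher. In the windows not shown, S100A4 and S100A7 held a TATA box, S100A6 3 GC boxes, S100A10 1 GC box, S100A8 a CCAAT box, and S100A3 an AP-1 site, a GC box and a CCAAT box. Different motifs did not overlap in the printed windows. These matches describe the letters only.

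The libraries held 13262363 to 14318909 counts in siZNF514 and 12175259 to 13696180 counts in nc. ZNF514, the targeted gene, had 64, 82 and 63 counts in siZNF514 against 239, 273 and 261 in nc, so its level in siZNF514 was 27.3% of that in nc. Squamous markers were present in every library, with KRT4 as the one gene of 13 at 0 in 5 libraries. The third siZNF514 library stood apart in markers of other cell types. Of 8 fibroblast markers, 1, 2 and 8 had counts in the siZNF514 libraries, with sums of 7, 6 and 275, against 5, 6 and 5 in nc, with sums of 30, 32 and 53. Of 10 myeloid markers, 2, 3 and 8 had counts in siZNF514 against 4, 5 and 5 in nc, at a summed 49.2 to 59.3 CPM in siZNF514 and 58.3 to 69.9 CPM in nc, most of it CD68. LYZ had 0, 0 and 49 counts in siZNF514 against 7, 2 and 5 in nc, CSF3R, TYROBP and AIF1 had 4 each in that library alone, and FCN1 and MPO were at 0 throughout. Because S100A4, S100A8 and S100A9 are abundant in such cells, results for these genes are also given without that library.

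In outline, S100A9, S100A11 and S100A16 rose in siZNF514, S100A2 and S100A4 fell, and S100A3, S100A6 and S100A10 did not pass the test. S100A7 and S100A8 had too few counts to be tested. The comparison used the edgeR quasi-likelihood test across 14250 genes with Benjamini-Hochberg adjustment, levels are in CPM (counts scaled to a common library size, with TMM factors), and a positive log2 fold change, given with its standard error (SE), means higher in siZNF514. So 8 of 10 members were tested and 5 of these passed an adjusted p of 0.05, while 50.6% of all tested genes did. By direction, 3 members were higher against 25.5% of all genes, and 2 were lower against 25.1%. A share of 5 in 8 is near that of all tested genes and is no result about the members. Scaling by total counts alone changed the balance for all genes, with 2493 higher and 4775 lower against 3629 higher and 3583 lower under TMM, and moved the median log2 fold change by -0.13. The 3 higher members stayed higher under that scaling. The CPM of the groups did not overlap for 7 of the 8 tested members, 3 higher and 4 lower, as for 60.3% of all tested genes (30.0% higher and 30.3% lower). Over the 8 members the log2 fold change had a median of -0.16, beside -0.01 over all tested genes. In bulk RNA, fewer cells that express a gene and less RNA per cell cannot be told apart.

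**Figure D1:**
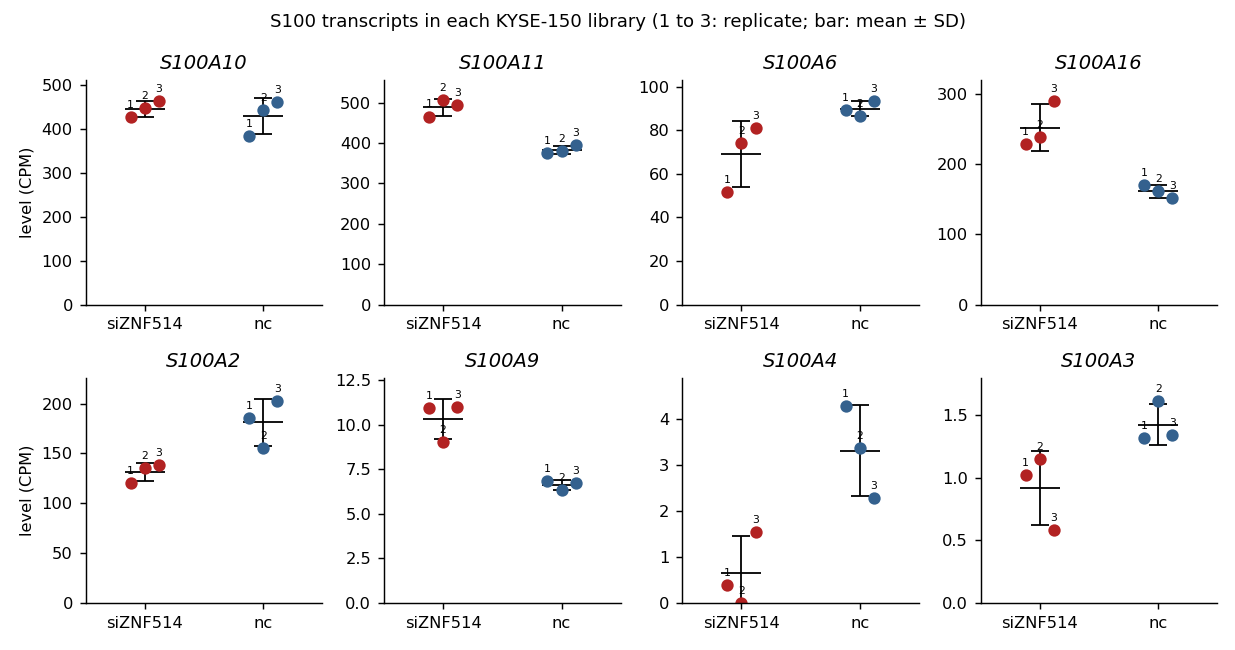
Level in CPM (vertical axes, from 0, each panel with its own scale) of the 8 tested S100 genes in the 3 siZNF514 libraries (red) and the 3 nc libraries (blue), with replicate numbers, the mean and the SD. S100A11, S100A16 and S100A9 are higher in every siZNF514 library, S100A2 is lower in every one, and S100A10 overlaps between the groups.

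S100A10 and S100A11 are the most abundant of these transcripts, and both proteins bind the N-terminal tails of annexins, proteins that attach to membranes. S100A10 (ENSG00000197747) holds together the annexin A2 tetramer, which brings plasminogen to the cell surface. Its levels were 426, 447 and 463 CPM in siZNF514 against 384, 442 and 461 CPM in nc. The ranges overlapped, and the small difference did not pass (log2 fold change 0.054, SE 0.071, edgeR adjusted p = 0.553). Its sign turned with the scaling, at -0.073 by total counts alone.

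S100A11 (ENSG00000163191), the partner of annexin A1, had 466, 506 and 493 CPM in siZNF514 against 375, 379.6 and 394 CPM in nc. Every siZNF514 library was above every nc library. It rose to 488 ± 20.5 CPM in siZNF514 against 383 ± 10.0 CPM in nc (SD, n = 3 each), a log2 fold change of 0.35 (SE 0.04, edgeR adjusted p = 0.00048). This was the smallest p-value among the members, for a level of 128% of that in nc. With total counts alone, and in the 4 fits on FPKM, the log2 fold change was 0.22 and still passed. Among the 3 genes with the most similar profile over the 6 libraries, by root mean square difference of centred log2 CPM, were ARGLU1 (0.0238) and GOLM1 (0.0240), each with a log2 fold change of 0.37. The table also lists 13 S100 pseudogenes, 11 of them of S100A11, and all were at 0 counts.

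S100A6 (ENSG00000197956, calcyclin), which binds annexin A11 and the ubiquitin ligase adaptor CACYBP, had 51.8, 74.3 and 81.1 CPM in siZNF514 against 89.1, 86.6 and 93.4 CPM in nc. All siZNF514 libraries were below all nc libraries, but they were far apart from each other, with replicate 1 the lowest. At 69.0 ± 15.3 CPM in siZNF514 and 89.7 ± 3.43 CPM in nc, the log2 fold change was -0.38 (SE 0.15) and did not pass in edgeR (adjusted p = 0.0751). The value was -0.20 without siZNF514 replicate 1 (adjusted p = 0.0515). It passed in the DESeq2 Wald test (adjusted p = 0.00959), with total counts alone, in each fit on FPKM and without siZNF514 replicate 3 (-0.50, adjusted p = 0.0386). The fits on FPKM also scale by library totals without TMM factors, so they are not separate from the result with total counts alone. The call for S100A6 thus depends on the test, on the scaling and on single libraries.

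S100A8 and S100A9 join into calprotectin, an antimicrobial complex that binds zinc and manganese and is made in large amounts by neutrophils and by inflamed epithelium. S100A9 (ENSG00000163220) had 139, 118 and 150 counts in siZNF514 against 88, 90 and 85 in nc, which is 10.9, 9.05 and 10.99 CPM against 6.83, 6.31 and 6.71 CPM. The groups did not overlap. It rose to 156% of the nc level (log2 fold change 0.64, SE 0.13, edgeR adjusted p = 0.00479). Without siZNF514 replicate 3 it was 0.60 (edgeR adjusted p = 0.0173). In siZNF514 replicates 1 and 2, S100A9 stood at 10.9 and 9.05 CPM. Of the 10 myeloid markers, 2 and 3 had counts in these libraries, with sums of 627 and 700. PTPRC, TYROBP, CSF3R and LYZ were at 0 there. In nc, LYZ had 7, 2 and 5 counts and PTPRC 0, 1 and 1. The part of other cells' RNA in the S100A9 counts was not tested.

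S100A8 (ENSG00000143546) had no count in any siZNF514 library against 0, 2 and 3 counts in nc. In nc its 5 counts were 1.87% of the counts of both calprotectin genes (exact 95% interval 0.608% to 4.30%). In siZNF514, 0 counts beside 407 for S100A9 allow up to 0.737% of the S100A9 count, for counting error only. Per library, the ratio of S100A8 to S100A9 counts was 0 in all 3 siZNF514 libraries and 0, 0.0222 and 0.0353 in nc, and an exact two-sided permutation test gave p = 0.4, where 3 against 3 allow no less than 0.1. The mean difference in this ratio was -0.0192. Leaving out siZNF514 replicate 3 could not change this value, since the ratio was 0 in all 3 siZNF514 libraries. A difference in S100A8 was not detectable at this depth. S100A7 (ENSG00000143556, psoriasin), named for its abundance in psoriatic skin, had 0 counts in all 6 libraries, which allows up to 0.220 to 0.235 CPM in siZNF514 libraries and 0.210 to 0.237 CPM in nc libraries. RNA of S100A9 was thus measured with little or none from its usual partner.

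S100A16 and S100A2 changed in opposite directions. S100A16 (ENSG00000188643), a broadly expressed member, had 228, 239 and 289.9 CPM in siZNF514 against 170.0, 162 and 152 CPM in nc. No siZNF514 library reached down to the nc range. The gene rose to 252 ± 33.0 CPM in siZNF514 against 161 ± 9.18 CPM in nc (log2 fold change 0.65, SE 0.09, edgeR adjusted p = 0.00125), and leaving out single libraries gave 0.54 to 0.72.

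S100A2 (ENSG00000196754), a mainly nuclear protein of basal squamous cells and a known target of p63, had 121, 135 and 138 CPM in siZNF514 against 185, 156 and 203 CPM in nc. The siZNF514 libraries were close together and all below the lowest nc library. The gene fell to 131 ± 9.23 CPM in siZNF514 against 181 ± 23.6 CPM in nc (log2 fold change -0.46, SE 0.10, edgeR adjusted p = 0.00745). Leaving out single libraries gave -0.56 to -0.37, all past the threshold. Of the 13 squamous markers 12 were tested, with 6 lower, 1 higher and 5 not past, beside 25.1% lower and 25.5% higher over all tested genes. Their summed level was 1891 to 2246 CPM in siZNF514 and 2458 to 2682 CPM in nc. Their part in the S100A2 result was not tested.

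S100A4 (ENSG00000196154, metastasin) is a motility factor that binds non-muscle myosin IIA and is abundant in fibroblasts and leukocytes. It had 5, 0 and 21 counts in siZNF514 against 55, 48 and 29 in nc, so it was a minor transcript in both groups. The siZNF514 libraries were all below the nc libraries, and 21 of their 26 counts came from replicate 3. It fell to 0.644 ± 0.800 CPM in siZNF514 against 3.31 ± 0.992 CPM in nc, a log2 fold change of -2.32 (SE 0.74, edgeR adjusted p = 0.0336), the only member called with a change past 2-fold, as 9.28% of all tested genes were. Without replicate 3 of siZNF514, the library with 275 fibroblast marker counts, it was -4.02 (adjusted p = 0.00708). The call was lost without nc replicate 1 (-2.10, adjusted p = 0.0947), without nc replicate 2 (-2.31, adjusted p = 0.0744), without siZNF514 replicate 1 (-2.06, adjusted p = 0.101) and in the DESeq2 Wald test (-2.36, adjusted p = 0.110). The fits on FPKM gave -3.88 to -1.08, depending on the pseudocount. The part of other cells' RNA in the S100A4 counts was not tested.

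S100A3 (ENSG00000188015), a protein known from the hair cuticle, lies wholly within the span of S100A4 on the same strand but shares no exon bases with it in GENCODE release 29. It had 13, 15 and 8 counts in siZNF514 against 17, 23 and 17 in nc. The groups did not overlap in CPM. The log2 fold change of -0.64 (SE 0.30) did not pass in edgeR (adjusted p = 0.117), and it was -0.38 without siZNF514 replicate 3 (adjusted p = 0.320). The 4 fits on FPKM put it past the threshold (-0.80 to -0.36).

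**Figure D2:**
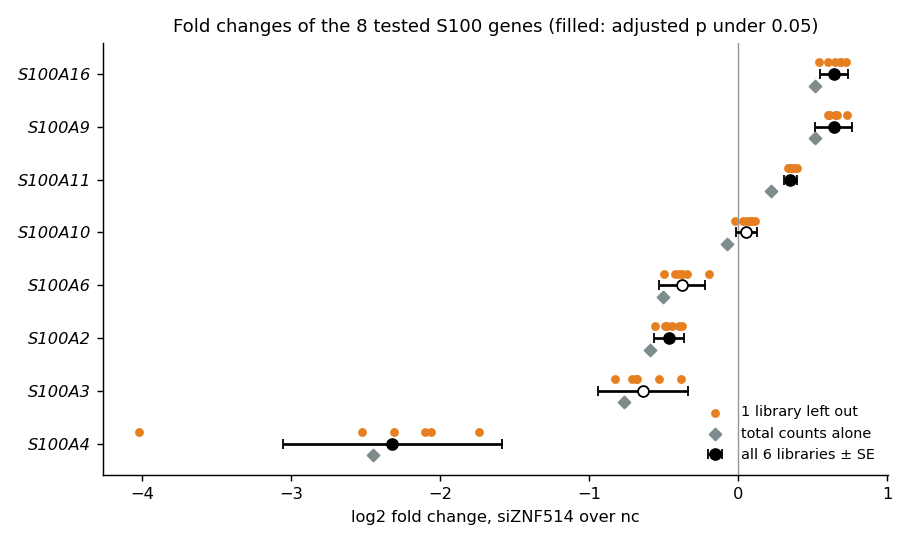
Log2 fold change of siZNF514 over nc (horizontal axis) for the 8 tested S100 genes: black circles with SE for all 6 libraries, filled where the adjusted p is under 0.05; orange points with 1 library left out; grey diamonds with total counts alone. S100A10 straddles 0, and all the other genes keep their side of 0 throughout. S100A4 runs from -4.02 to -1.74 with single libraries left out.

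Levels of different genes can be compared per length only. On CPM per kilobase of exon (merged exons of GENCODE release 29), S100A11 led with 718 in siZNF514 and 563 in nc, followed by S100A10 with 288 in siZNF514 and 278 in nc. Below them the order differed between the groups. In siZNF514, S100A16 (148) stood above S100A2 (83.8), S100A6 (71.1) and S100A9 (17.9). S100A3 (0.962) and S100A4 (0.628) were last of the 8 tested members. In nc, S100A2 (116), S100A16 (94.8) and S100A6 (92.4) followed each other closely, then came S100A9 (11.5), S100A4 (3.23) and S100A3 (1.49). Library ranges of neighbours overlapped in siZNF514 for S100A2 with S100A6 and for S100A3 with S100A4, and in nc for S100A2 with S100A16 and for S100A16 with S100A6.

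**Figure D3:**
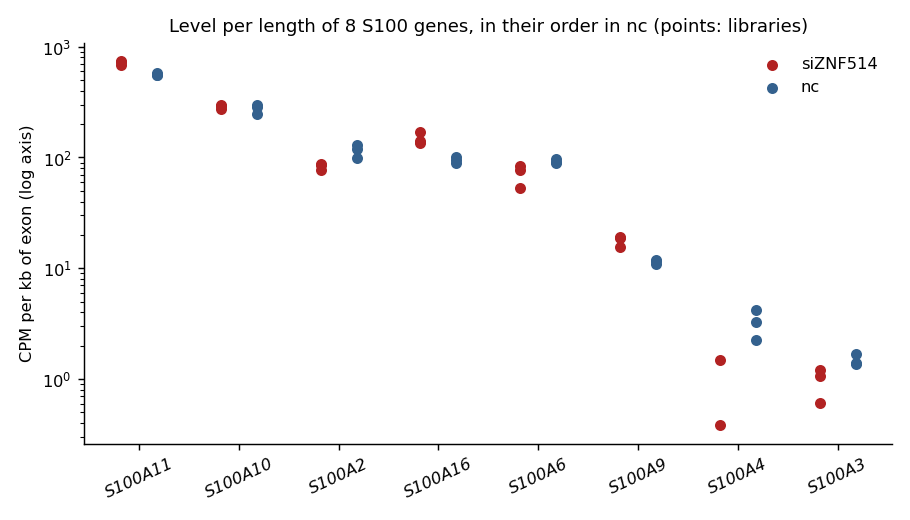
CPM per kilobase of exon (vertical log axis) of the 8 tested S100 genes, in their order in nc, with 1 point per library for siZNF514 (red, left) and nc (blue, right); the siZNF514 library with 0 counts of S100A4 cannot be drawn on a log axis. S100A16 lies above S100A2 in siZNF514 (148 and 83.8 on average) and overlaps it in nc (94.8 and 116).

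Summed over the 10 genes, S100 transcripts held 0.125%, 0.134% and 0.141% of all counts in siZNF514 against 0.127%, 0.129% and 0.137% in nc, ranges that overlap. Wilson 95% intervals, which cover counting error only, ran from 0.123% to 0.143% over the siZNF514 libraries and from 0.125% to 0.139% over the nc libraries. The 5 most abundant members made up different parts of that sum. S100A16 made up 16.9% to 19.6% of member counts in siZNF514 and 11.6% to 13.99% in nc, S100A2 made up 9.26% to 9.58% in siZNF514 and 12.6% to 15.4% in nc, and S100A11 made up 33.4% to 35.8% in siZNF514 and 30.0% to 30.9% in nc. S100A6 made up 3.97% to 5.48% in siZNF514 and 6.997% to 7.33% in nc. The ranges of these 4 did not overlap. Those of S100A10 did, at 31.3% to 32.6% in siZNF514 and 31.6% to 35.7% in nc. Parts of the same sum are tied to each other, so these are not separate results. On CPM, the groups did not overlap for 60.3% of all tested genes.

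The annexins were measured in the same libraries. ANXA2, the membrane-binding chain of the tetramer, rose to 1538 ± 38.3 CPM in siZNF514 against 1018 ± 37.8 CPM in nc (log2 fold change 0.60, SE 0.03), while S100A10 did not. For each count of ANXA2 there were 0.269, 0.296 and 0.304 counts of S100A10 in siZNF514, against 0.392, 0.433 and 0.437 in nc. Merged exons span 1543 bases in S100A10 and 8824 in ANXA2. The ratio is not corrected for length, so it compares the groups and does not show which gene has more RNA. The ratio was lower in all 3 siZNF514 libraries, by a log2 difference of -0.54, and an exact two-sided permutation test gave p = 0.1, the smallest that 3 against 3 allow. The pseudogene ANXA2P2 carried 7613, 7732 and 8472 counts in siZNF514 and 4896, 5653 and 4762 in nc, and reads of this near-identical copy could be shared with ANXA2. With the counts of both summed the difference was -0.55, an alternative chosen after seeing the data.

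**Figure D4:**
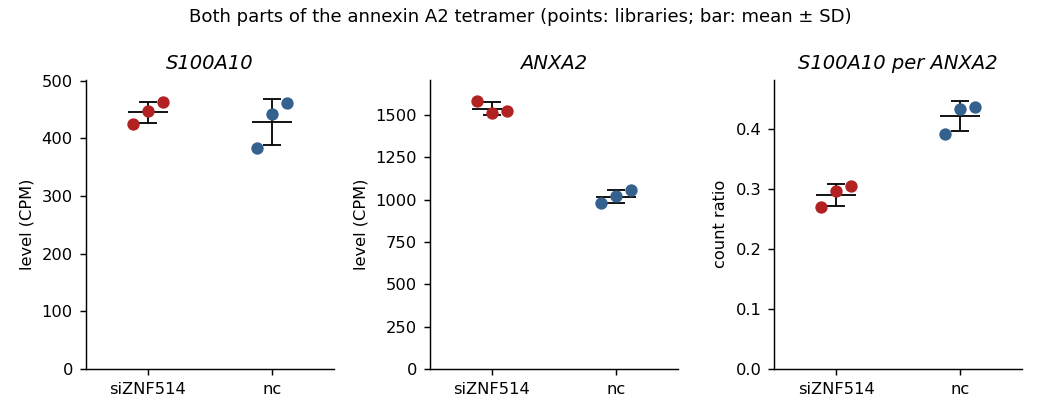
Levels of S100A10 and ANXA2 in CPM and the count ratio of S100A10 to ANXA2 (vertical axes, from 0) in the siZNF514 libraries (red, left) and the nc libraries (blue, right), with mean and SD. S100A10 overlaps between the groups, ANXA2 is higher in every siZNF514 library, and the ratio is lower, at 0.290 ± 0.0182 in siZNF514 and 0.421 ± 0.0250 in nc.

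Of 27 intracellular partners of S100 proteins listed, 25 were tested, with 11 higher, 2 lower and 12 not past, beside 25.5% higher and 25.1% lower over all tested genes. The median log2 fold change of the list was 0.22, beside -0.01 over all tested genes. Besides ANXA2, they included ANXA1, partner of S100A11, at 989 ± 85.5 CPM in siZNF514 against 683 ± 17.3 CPM in nc (0.53, SE 0.06), and ANXA11, partner of S100A6, at 231 ± 8.94 CPM in siZNF514 against 159 ± 8.55 CPM in nc (0.54, SE 0.05). AHNAK, the giant scaffold bound by the S100A10 tetramer, rose (0.40, SE 0.03), as did MYH9, the heavy chain of myosin IIA bound by S100A4, at 2509 ± 32.7 CPM in siZNF514 against 1588 ± 9.62 CPM in nc (0.66, SE 0.02). CACYBP, partner of S100A6, did not pass (0.52, SE 0.22). Those that fell included STUB1 (-0.31, SE 0.08), a ubiquitin ligase. Of the 5 annexins in this list, ANXA1, ANXA2, ANXA5 and ANXA11 were higher and ANXA6 had too few counts to test. Other annexin genes were not examined.

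Of 18 receptors and surface targets of S100 proteins 14 were tested, with 1 higher, 7 lower and 6 not past, beside 25.5% higher and 25.1% lower over all tested genes, and a median of -0.11. The gene that rose was BSG (0.36, SE 0.04), which encodes basigin, a receptor of S100A9. SDC1, a heparan sulphate proteoglycan, fell to 45.0 ± 1.63 CPM in siZNF514 against 224 ± 42.2 CPM in nc (-2.32, SE 0.13), and MCAM, another S100A8 and S100A9 receptor, fell (-1.23, SE 0.14). EGFR (-0.60, SE 0.07) and TRPV6, a calcium channel that needs the S100A10 tetramer to reach the membrane (-0.65, SE 0.18), fell too. AGER, the receptor for advanced glycation end products that many S100 proteins bind, was a minor transcript with 27, 35 and 26 counts in siZNF514 against 22, 18 and 15 in nc, and did not pass (0.69, SE 0.25, edgeR adjusted p = 0.0508). TLR4, the other main receptor of calprotectin, had 7, 3 and 4 counts in siZNF514 against 11, 6 and 5 in nc, too few to test.

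Among 18 transcription factors with known sites at S100 genes, 4 rose and 5 fell, beside 25.5% higher and 25.1% lower over all tested genes, 9 missed the threshold, and the median was -0.11. TP63, the lineage factor of squamous cells, did not pass (-0.17, SE 0.09), while the related TP73 (-1.35, SE 0.23) fell. CEBPB (-0.52, SE 0.05) and STAT3 (-0.29, SE 0.04), known activators of the calprotectin genes, fell, as did CEBPA (-1.41, SE 0.14). The AP-1 subunits JUNB (0.86, SE 0.04) and FOSL1 (0.39, SE 0.07) rose, and JUN did not pass (-0.06, SE 0.05).

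Of the 11 other S100 genes in the table, S100A7A, S100A7L2, S100A12, S100B, S100G and S100Z had no count in any library, and S100P, S100A5 and S100A1 had too few to test. S100A14, whose protein binds S100A16, fell to 99.2 ± 3.62 CPM in siZNF514 against 135 ± 3.33 CPM in nc (-0.44, SE 0.05, edgeR adjusted p = 0.0003). Only 1109 bases separate its span from that of S100A16, which rose. S100A13, next in line, had 304, 515 and 376 counts in siZNF514 against 294, 374 and 246 in nc and did not pass (0.41, SE 0.20). S100A1 had 0, 1 and 4 counts in siZNF514 against 10, 7 and 10 in nc, and it shares 235 exon bases with S100A13 on the opposite strand, so its reads are uncertain without knowledge of strand use.

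Genes around the S100 genes differed in both directions, as did tested genes as a whole. From 500 kb before S100A10 to 500 kb beyond S100A16, 35 genes were tested. The 25 that are not S100 genes included 4 higher, 6 lower and 15 not past. Over all tested genes 25.5% were higher and 25.1% lower. FLG, which encodes filaggrin, an epidermal protein with an S100 domain at its start, lies between S100A11 and S100A9 and fell (-1.14, SE 0.14) with 110, 89 and 118 counts in siZNF514 against 241, 270 and 198 in nc. It was the only tested gene of the 24 cornified envelope and S100 fused-type genes found in the table, of which 12 had no count in any library. SPRR2A, a cornified envelope precursor, had 1, 2 and 6 counts in siZNF514 against 9, 11 and 9 in nc, too few to test. CHTOP, just beyond the S100 genes, had a log2 fold change of 0.0066 (SE 0.06).

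**Figure D5:**
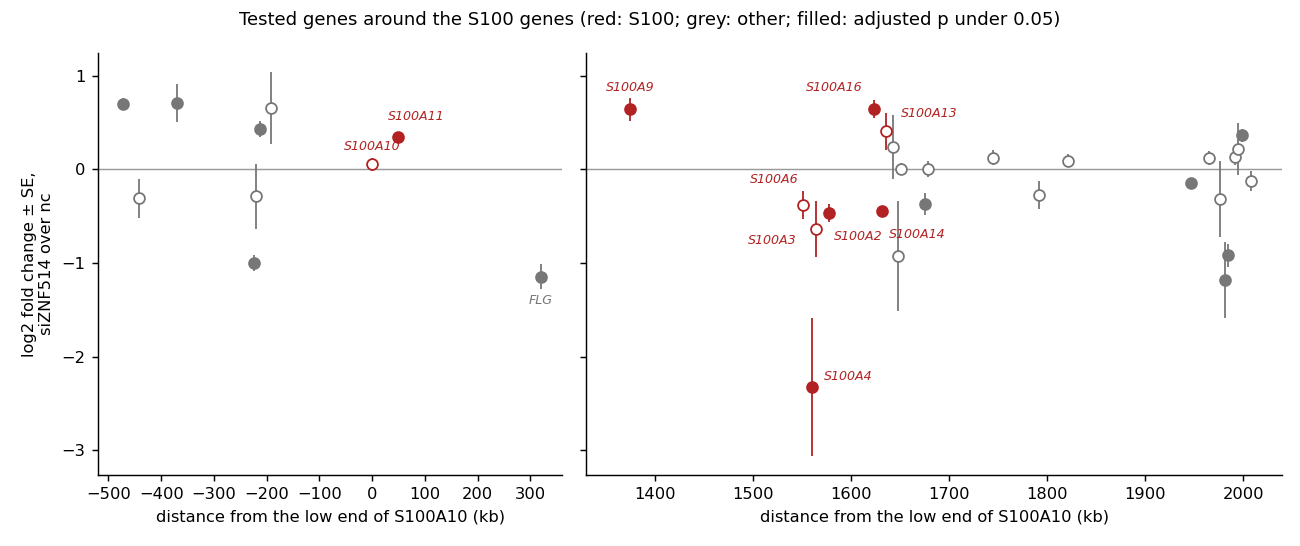
Log2 fold change with SE of siZNF514 over nc (vertical axis) for tested genes by distance in kilobases from the low end of S100A10 (horizontal axis, in 2 panels): red for S100 genes, grey for others, filled where the adjusted p is under 0.05. S100A16 (0.65) and its neighbour S100A14 (-0.44) lie on opposite sides of 0, and genes beyond the cluster scatter around 0.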

How the data were processed

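RNA was sequenced in 6 KYSE-150 libraries, 3 siZNF514 and 3 nc. Per the labels, TRIzol was used to extract RNA, and libraries were made with a VAHTS V6 kit and run on an Illumina NovaSeq. Tools named, without roles, in the submitters' processing notes are StringTie 1.3.3b, HISAT2 2.0.4 and edgeR, with build hg38. Strand setting and annotation: not given in the sources used here. Deposited count columns hold whole read counts per gene with no normalization. The authors' FPKM columns divide these counts by the library total and by 1 length per gene. For all 9 members with a count, that length equals the sum of the distinct annotated exons of GENCODE release 29 within 0.1%, so bases of overlapping exons enter repeatedly, up to 2.08 times the merged length, and merged exon lengths were used here instead to compare genes.

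Columns were matched to libraries by title. The 10 genes, the gene lists and the tests were chosen with earlier results of these data known. Genes were filtered with filterByExpr (minimum count 10, minimum total 15), which left 14250, scaled by TMM (factors 0.954 to 1.05) and tested in edgeR 4.0.16 (R 4.3.3) by the quasi-likelihood test (4 residual degrees of freedom). P-values were adjusted by Benjamini-Hochberg over all tested genes at 0.05. The SE is the log2 fold change divided by the square root of F. One count is 0.0701 to 0.0789 CPM. Replicates differed beyond sampling noise (chi-square 7.97 to 9.97 per degree of freedom). Intervals and floors (3 counts) cover counting error only. The code was tested on simulated data. Every S100 gene, genes of the lists, tested neighbours within 500 kb and the 3 genes most like the member with the smallest p-value (log2 of CPM + 0.5) could be named. Listed genes with too few counts to test that are named with their counts were chosen after their values were seen. Some listed genes are not reported here. Alternatives were DESeq2 1.42.0 size factors and Wald test, total counts alone, other filters (any count, or a mean count of at least 50), limma 3.58.1 on log2(FPKM + 0.1), also with 1 and 0.01 and with a mean FPKM of at least 0.5, the replicate number as a block, and each library left out.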

Additional observations from a re-analysis of the deposited data

How the results depend on the processing

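S100A2, S100A9, S100A11 and S100A16 kept their direction and passed under all 16 alternatives, with log2 fold changes of -0.59 to -0.37, 0.48 to 0.73, 0.22 to 0.39 and 0.50 to 0.72. The count of higher members stayed at 3. The count of lower members was 2 and became 4 with limma-trend on log2(FPKM + 0.1), on log2(FPKM + 1) and on log2(FPKM + 0.1) at a mean FPKM of at least 0.5, where S100A3 and S100A6 passed as well. It was 1 at a mean count of at least 50, where S100A4 is not tested. Leaving out single libraries gave 1 to 3. Replicate numbers in the titles name no shared culture or day, and same-numbered libraries did not deviate together (correlations of 0.00121, 0.0370 and -0.0392). With the replicate block the count of lower members was 1, since S100A4 no longer passed (-2.45, adjusted p = 0.0645), and 6640 genes in all were called against 7212. Over its 15 alternatives the adjusted p of S100A4 ran from 0.00708 to 0.110, with the limma fit at a pseudocount of 0.01 also not past (adjusted p = 0.0639). S100A10, never past, turned to -0.073 with total counts alone and to -0.069 in all 4 FPKM fits, and ran from -0.018 (without nc replicate 1) to 0.11 without single libraries. The share of counts held by the members, siZNF514 minus nc, was 0.00264 percentage points, 0.0250 of summed FPKM, and -0.00100 to 0.00674 without single libraries, negative without siZNF514 replicate 3. The ratio of S100A10 to ANXA2 differed by -0.59 to -0.49 (log2) and that of S100A8 to S100A9 by -0.0288 to -0.0111 without single libraries, and by -0.54 and -0.00813 on FPKM. The causes of these shifts were not tested. Like total counts alone, the 4 FPKM fits used no TMM factors. Against the main fit, they moved log2 fold changes by a median of -0.126 to -0.110, beside -0.127 with total counts alone. S100A3, S100A4 and S100A8, with few counts, are limited by depth.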

Other observations

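Some genes tied to S100 proteins were uneven between libraries of 1 group. S100PBP, which encodes a nuclear protein that binds S100P, had 142, 443 and 489 counts in siZNF514 against 341, 392 and 309 in nc. CAPZA1, a subunit of the actin capping protein that S100 proteins bind, had 2751, 1488 and 1393 counts in siZNF514 against 1826, 4087 and 2162 in nc, and did not pass (-0.47, SE 0.35). TXNIP had 0, 0 and 26 counts in siZNF514 against 1, 1 and 2 in nc, so its counts stand in the same siZNF514 library as the fibroblast and leukocyte markers. S100B, the marker of glia and melanocytes, was at 0 throughout. Of 8 melanocyte and Schwann cell markers, 4, 4 and 4 had counts in siZNF514 against 4, 6 and 4 in nc. Their sums were 126, 126 and 135 counts in siZNF514 and 294, 441 and 297 in nc. SOX10 and MLANA were at 0 throughout. MITF had 50, 56 and 72 counts in siZNF514 against 190, 324 and 184 in nc (-1.94, SE 0.22).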
